A study of Rattus norvegicus with 2 samples.

Results

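Oxidative phosphorylation couples the oxidation of NADH and succinate to the synthesis of ATP in the inner mitochondrial membrane. Its nuclear-encoded genes were taken here as all genes of the deposited expression table whose symbol begins with Nduf (subunits and assembly factors of complex I), Uqcr (complex III), Cox4 to Cox8 (complex IV) or Atp5 (the ATP synthase, complex V), together with *Sdha*, *Sdhb*, *Sdhc* and *Sdhd* (complex II). This symbol rule takes 96 of the 32662 listed genes, under 93 distinct symbols. Complexes I to IV pass electrons to oxygen and, except for complex II, pump protons, and complex V uses the proton gradient to make ATP. The subunits of complexes I, III, IV and V come from both the nuclear and the mitochondrial genome, while complex II is wholly nuclear. The retina has one of the highest oxygen demands of any tissue, and most of its mitochondria lie in the inner segments of the photoreceptors.

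The study compared the retina of Long-Evans rats aged 2 months after a sham procedure (CTRL) with the ischemic retina collected 12 hours after reperfusion (IR12). Each condition is 1 library of rRNA-depleted RNA, so no difference between CTRL and IR12 has a replicate check and no test was made. Levels are FPKM, fragments scaled to transcript length and to the size of the library, as the authors deposited them, and whether that size is the mapped reads or a factor estimated from the genes was not checked. Differences are given as log2 ratios, the log2 of FPKM + 1 in IR12 divided by FPKM + 1 in CTRL, and on this scale the difference of a gene with a low level comes out too small.

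The labelled tissue was checked against marker genes. All 9 rod markers examined were present, from *Nr2e3* at 27.3 FPKM in CTRL and 23.5 in IR12 upward, with *Gnat1*, the alpha subunit of rod transducin, at 4027 and 4237 FPKM. They went both ways, 5 higher and 4 lower in IR12, between log2 ratios of -0.92 (*Rcvrn*) and 0.92 (*Sag*). Of 7 skeletal muscle genes, 6 had an FPKM under 1 in both libraries. Lens genes were present, however, and their 7 genes summed to 3374 FPKM in CTRL and 400.2 in IR12. The libraries thus held lens transcripts in unequal amounts, and whether lens tissue was carried over was not tested. In bulk tissue, fewer cells of a type and less RNA per cell cannot be told apart.

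Of the 96 members, 83 reached an FPKM of 1 in at least 1 library and are called tested below. The other 13 include 7 listed at 0 in both libraries. An entry of 0 can be a failed estimate, because *Ndufa1* (listed under 2 identifiers) and *Atp5f1*, both needed for their complexes, are at 0, as are all 37 genes of the mitochondrial chromosome. The mitochondrially encoded subunits therefore cannot be set beside the nuclear ones. The members as a whole were abundant, since 34 of them had at least 100 FPKM in both libraries, and together they summed to 11423.5 FPKM in CTRL and 12327 in IR12.

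Most tested members had a somewhat higher level in IR12. The log2 ratio was above 0 for 58 and below 0 for 25 of the 83, against 51.8% of the 13599 genes tested in the whole table with a ratio above 0. The median log2 ratio of the members was 0.19 (quartiles -0.08 and 0.36), against 0.02 for all genes tested. The shift was small for single genes: 27 members stood at least 25% above CTRL and 8 at least 20% below it (the same fold in both directions), against 27.1% and 24.9% of all genes tested. As deposited, the share of members on the higher side was thus close to that of all genes, and it was the lower side that held few members. Only 1 member was at least 2-fold higher (*Atp5g1*) and 1 at least 2-fold lower (a *Cox6b1* pseudogene), against 6.56% and 6.12% of all genes tested.

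**Figure D1:**
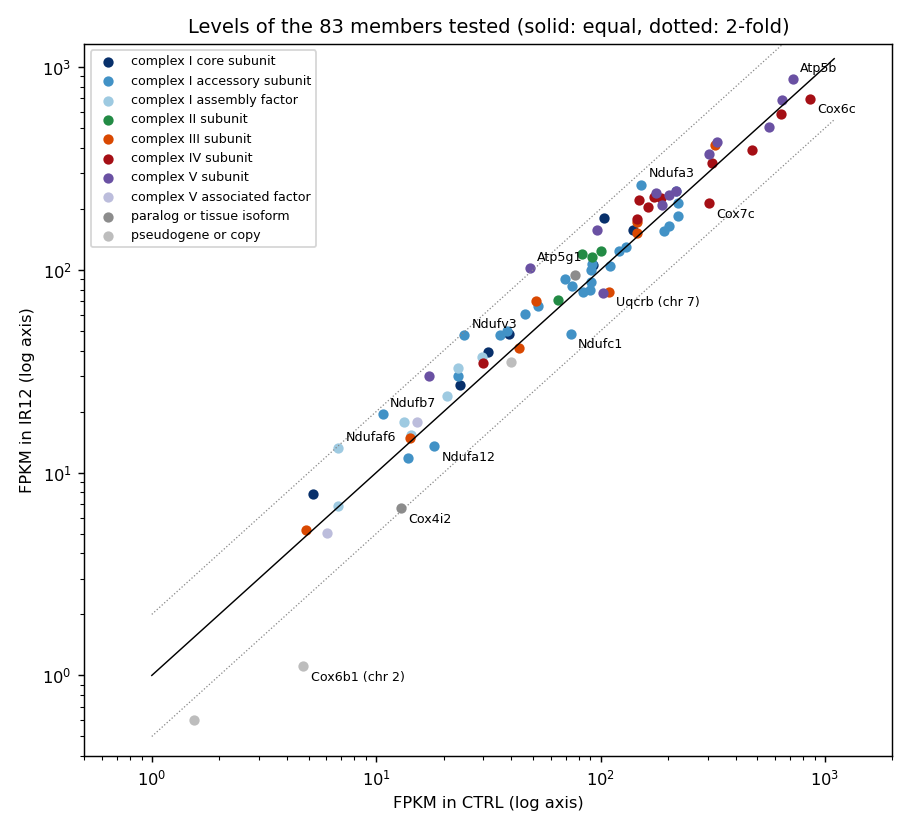
FPKM of the 83 tested members in CTRL (horizontal, log axis) and IR12 (vertical, log axis), 1 point per member, coloured by role. Most points lie near the solid line of equal levels, and Atp5g1 (48.3 and 102 FPKM), the Cox6b1 copy on chromosome 2 (4.74 and 1.11 FPKM) and Ndufv3-ps1 (1.54 and 0.602 FPKM, the unlabelled lowest point) lie past the dotted 2-fold lines, which are drawn for FPKM without the added 1.

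The direction of these differences depends on how the libraries are scaled. Small non-coding RNAs take 67.9% of the summed FPKM in CTRL and 46.3% in IR12. Rescaling both libraries to the same sum over all genes (the TPM scale) therefore raises the median log2 ratio of all genes tested to 0.60 and that of the members to 0.83, with 80 of 83 members above 0, against 11464 of the 13599 genes tested. With the same sum over genes other than small RNAs, the medians were -0.06 and 0.10, with 51 of 83 members above 0, against 6125 of the 13599 genes tested. At least 25% above CTRL were 90.4% of the members and 70.0% of all genes tested on the TPM scale, and 16.9% and 22.3% without small RNAs, so how the higher sides compare changes with the scaling, while on each scale the lower side held a smaller share of the members. The distance between the members and all genes tested was similar on the 3 scales, at 0.17 as deposited, 0.23 on the TPM scale and 0.16 without small RNAs. Each rescaling shifts every log2 ratio by nearly the same amount (0.65 and -0.09), apart from the effect of the added 1. Distances and orders are thus nearly fixed in advance, and their likeness across scales is no separate support. Values below are as deposited, and each member named as lower in IR12 was higher on the TPM scale, apart from *Cox4i2*, *Ndufv3-ps1* and the *Cox6b1* pseudogene.

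**Figure D2:**
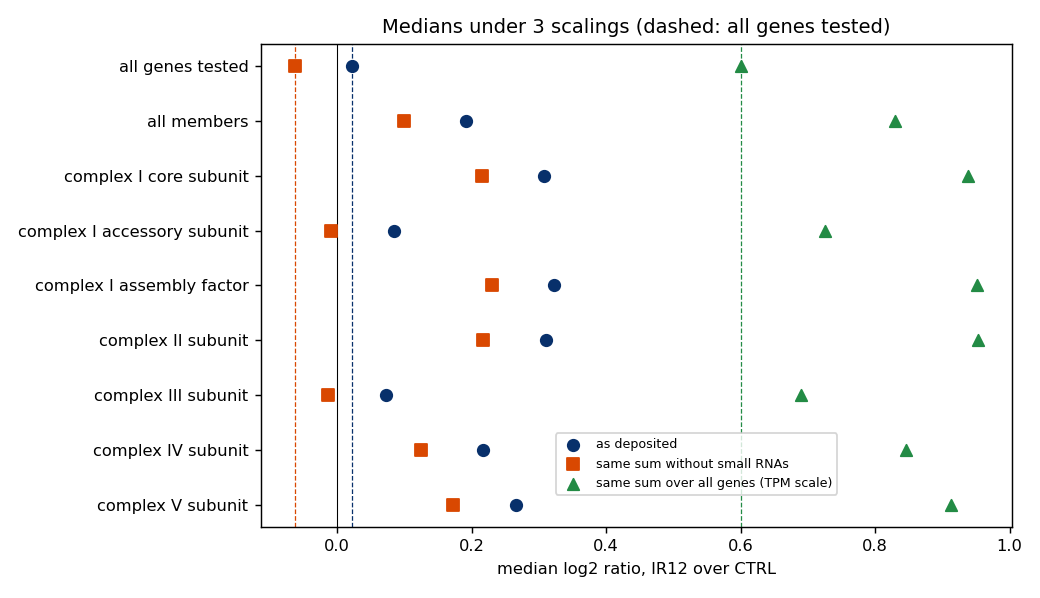
Median log2 ratio (IR12 over CTRL) of all genes tested, all members and 7 member groups with FPKM as deposited, with the same sum without small RNAs, and on the TPM scale, with dashed lines at the median of all genes tested. A rescaling shifts all ratios by nearly the same amount, so the order of the groups is nearly fixed across scales. Complex I accessory subunits (0.08, -0.01 and 0.73) and complex III (0.07, -0.01 and 0.69) lie nearest to all genes.

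Genes of these complexes have housekeeping promoters, and nuclear respiratory factor 1 (NRF1), GABPA of the ETS family and YY1 are known as activators of many of them. Promoters of 300 bases, 250 before and 50 after the start site, were taken from RefSeq on GRCr8 and matched by symbol and chromosome for 80 members, 69 of them tested. They were searched on both strands for GCGCATGC (core of the NRF1 site), CCGGAAG (ETS), AAGATGGC (YY1), ACGTG (core of the hypoxia response element) and TATAAA (called the TATA box). The reverse complement of the NRF1 core begins with its last 6 letters, so matches on opposite strands can overlap.

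The YY1 letters stood in 14 of the 69 tested members (20.3%), in 5.46% of the 9753 other tested genes with a promoter and in 3.44% of all 27457 promoters. The NRF1 core stood in 10 members (14.5%), against 5.14% and 2.66%. The ETS letters stood in 19 members (27.5%), against 17.4% and 9.22%. At least 1 of these 3 motifs was found in 32 members (46.4%) and in 25.4% of the other tested genes. The hypoxia element core, at 30.4% of members and 25.2% of other tested genes, and the TATA box, at 5.80% and 6.63%, stood in closer shares. Within the YY1 matches of members, 12 of 14 began between 10 bases before and 40 bases after the start site, a position that 58.9% of the 545 matches of other tested genes shared. The YY1 letters contain ATG, the letters of a start codon. Whether matches near the start site coincide with the start of translation was not tested, so their share and position are not particular to YY1.

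**Figure D3:**
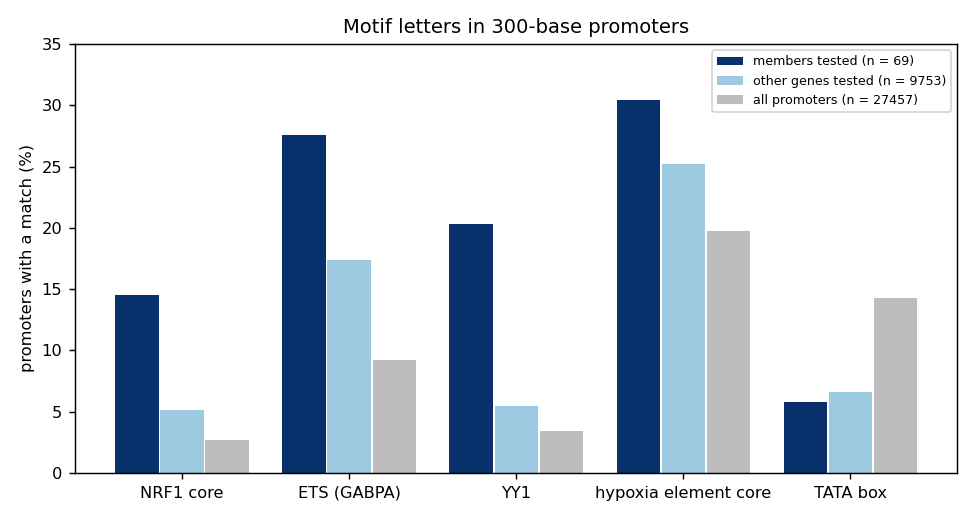
Share of 300-base promoters with at least 1 match on either strand (vertical axis, percent) for 5 motifs, in 69 tested members, 9753 other tested genes and all 27457 promoters. The YY1 bar of the members (20.3%) stands furthest above the other bars in proportion, and the TATA box (5.80%) is below its share of all promoters (14.3%).

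The 5 promoters printed here show these motifs in members of 4 complexes, and they were picked for their motifs after the values were seen. *Ndufa6* and *Atp5i* hold all 3 kinds of motif, *Atp5o* and *Uqcrc1* the NRF1 core and the YY1 letters, and *Cox8a* a pair of ETS matches and the YY1 letters. Each runs 5′ to 3′ in the direction of the gene, from 220 bases before to 30 bases after the start site, with the matches to these 3 motifs in capitals.
Ndufa6 (GRCr8, chr7:115750288-115750537, minus strand): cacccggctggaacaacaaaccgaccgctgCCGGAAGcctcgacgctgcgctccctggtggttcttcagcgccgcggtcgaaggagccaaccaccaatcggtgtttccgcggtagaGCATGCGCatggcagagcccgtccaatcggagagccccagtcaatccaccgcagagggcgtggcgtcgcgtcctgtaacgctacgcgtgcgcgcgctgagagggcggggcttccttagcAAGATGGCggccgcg
Atp5i (GRCr8, chr14:1464640-1464889, plus strand): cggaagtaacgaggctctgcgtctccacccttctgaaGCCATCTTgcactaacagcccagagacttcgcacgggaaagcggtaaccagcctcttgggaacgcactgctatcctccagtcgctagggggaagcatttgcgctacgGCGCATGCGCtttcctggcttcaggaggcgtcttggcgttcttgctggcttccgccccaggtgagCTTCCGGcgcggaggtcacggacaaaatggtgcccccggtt
Atp5o (GRCr8, chr11:44657454-44657703, minus strand): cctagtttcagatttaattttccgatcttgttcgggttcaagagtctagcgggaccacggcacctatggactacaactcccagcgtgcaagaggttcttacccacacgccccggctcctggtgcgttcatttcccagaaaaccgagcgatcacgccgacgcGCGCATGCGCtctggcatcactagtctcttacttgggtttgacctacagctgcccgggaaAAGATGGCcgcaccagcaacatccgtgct
Uqcrc1 (GRCr8, chr8:118468003-118468252, plus strand): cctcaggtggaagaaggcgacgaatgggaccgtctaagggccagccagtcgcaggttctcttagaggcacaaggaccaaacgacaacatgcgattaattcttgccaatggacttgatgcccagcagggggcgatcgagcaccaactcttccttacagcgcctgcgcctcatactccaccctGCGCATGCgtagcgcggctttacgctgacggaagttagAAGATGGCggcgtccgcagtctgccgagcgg
Cox8a (GRCr8, chr1:213833594-213833843, minus strand): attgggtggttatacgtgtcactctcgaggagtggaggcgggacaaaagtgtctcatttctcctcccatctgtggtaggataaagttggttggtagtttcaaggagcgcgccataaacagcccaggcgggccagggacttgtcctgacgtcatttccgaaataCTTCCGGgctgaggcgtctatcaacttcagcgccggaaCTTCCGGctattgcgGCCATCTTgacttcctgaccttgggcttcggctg
In *Uqcrc1* and *Atp5o* the YY1 letters span the start site or follow it at once, beginning at offsets -1 and 1 from it, and in *Cox8a* they begin at -4 on the opposite strand. The NRF1 core of these promoters lies further out, at -39 in *Uqcrc1* and from -59 in *Atp5o*. The 5 genes did not share a direction: the log2 ratio was 0.57 for *Cox8a*, 0.44 for *Atp5o*, 0.44 for *Uqcrc1*, 0.09 for *Atp5i* and -0.30 for *Ndufa6*. Over the tested members, the median log2 ratio with and without a motif was 0.34 and 0.20 for the NRF1 core, 0.31 and 0.21 for YY1, and 0.19 and 0.22 for ETS. For the hypoxia element core it was 0.29 and 0.20, and for the TATA box 0.10 and 0.22. The G and C content of the promoters had a median of 57.3% in members and 61.3% in other tested genes, and its Spearman correlation with the log2 ratio across the 69 members was 0.11. A match is a run of letters and does not show that a factor binds there.

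**Figure D4:**
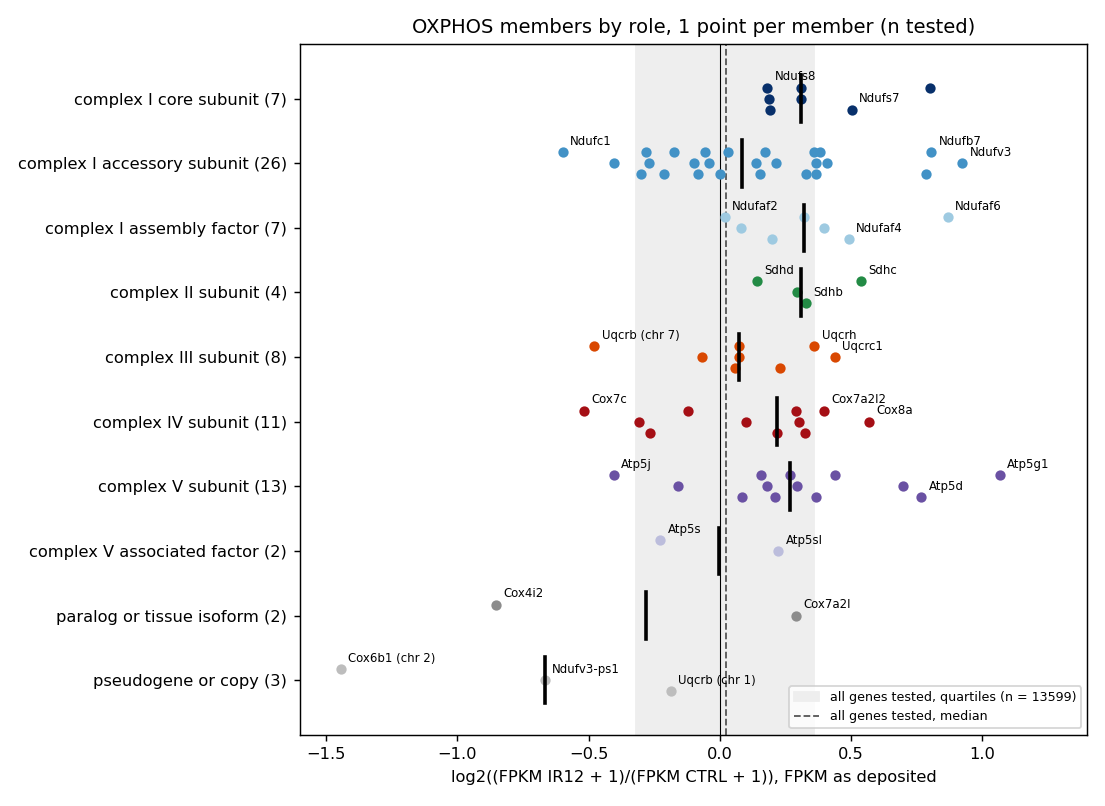
Log2 ratio (IR12 over CTRL) of each tested member by role, with black bars at the role's median, the grey band at the quartiles and the dashed line at the median (0.02) of all 13599 genes tested. All 7 complex I core subunits, all 7 assembly factors and all 4 complex II subunits lie right of 0, while complex I accessory subunits spread from -0.60 to 0.92.

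Complex I oxidises NADH and is the largest of the complexes. Its nuclear core subunits carry the flavin and the iron-sulfur clusters, and all 7 listed were above CTRL in IR12 (median log2 ratio 0.31). *Ndufv2*, the most abundant core subunit by mean level, had 139 FPKM in CTRL and 158 in IR12. *Ndufs7* was the least abundant, with 5.25 FPKM in CTRL and 7.86 in IR12. The log2 ratio was 0.19 for *Ndufv2* and 0.50 for *Ndufs7*, and 5 of the 7 had ratios between 0.18 and 0.31 at very different levels.

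The accessory subunits surround the core and are needed for its assembly and stability. As deposited they were divided much as all genes tested were: of 26 tested, 14 were higher (53.8%, against 51.8% of all genes) and 12 lower in IR12, and the median log2 ratio was 0.08. On the TPM scale all 26 were higher, against 84.3% of all genes tested. *Ndufv3*, an accessory subunit of the NADH-binding module, had 24.7 FPKM in CTRL and 47.7 in IR12 (log2 ratio 0.92). *Ndufb7*, a membrane-arm subunit, had 10.7 and 19.4 FPKM (0.80), and *Ndufa3* had 152 and 263 FPKM (0.79). These 3 were among the 6 highest log2 ratios of all members with an FPKM of at least 5 in either library. On the other side, *Ndufc1* had 73.6 FPKM in CTRL and 48.3 in IR12 (-0.60), the lowest ratio of the tested complex I subunits. *Ndufa12* had 18.2 FPKM in CTRL and 13.5 in IR12 (-0.40). *Ndufb9*, the most abundant accessory subunit by mean level, had 216 and 244 FPKM (0.17). Subunits of 1 complex thus ranged from a ratio of -0.60 to one of 0.92 in these libraries.

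Assembly factors help to build complex I and are not part of it. All 7 members of this kind were higher in IR12 as deposited, and 5 of 7 without small RNAs, the median as deposited being 0.32, and all lay below the median level of the members in both libraries. *Ndufaf6* had 6.79 FPKM in CTRL and 13.2 in IR12 (0.87), the third highest ratio among members. *Ndufaf5*, the most abundant factor, had 29.5 and 37.1 FPKM (0.32), and *Ndufaf2* was even at 6.78 and 6.88 FPKM. Another 6 assembly factors of complex I, whose symbols the rule does not take, had a median of 0.19 with 4 of 6 higher in IR12.

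Complex II, which oxidises succinate and belongs to the citric acid cycle as well, was higher in IR12 in all 4 subunits, with a median of 0.31. Its flavoprotein *Sdha* had 101 FPKM in CTRL and 124 in IR12 (0.29), and its membrane anchor *Sdhc* had 82.5 and 120.2 FPKM (0.54). The iron-sulfur subunit *Sdhb* had 91.7 and 116 FPKM (0.33) and the anchor *Sdhd* 64.6 and 71.3 FPKM (0.14). In both libraries *Sdha* had the highest level of the 4 and *Sdhd* the lowest.

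Complex III passes electrons from ubiquinol to cytochrome c. Of the 8 subunits that the symbol rule takes, which leaves out cytochrome c1, 6 were higher and 2 lower in IR12 as deposited, with a median of 0.07, close to that of all genes tested, and 3 were higher without small RNAs. *Uqcrh*, the hinge subunit and the most abundant, had 323 FPKM in CTRL and 415 in IR12 (0.36). The core subunit *Uqcrc1* had 51.6 and 70.3 FPKM (0.44). *Uqcrb* on chromosome 7, which takes part in binding ubiquinone, had 109 FPKM in CTRL and 78.1 in IR12 (-0.48). The Rieske iron-sulfur protein *Uqcrfs1*, a catalytic subunit, was nearly even at 145 and 153 FPKM (0.07). The subunits of this complex therefore did not share a direction as deposited. On the TPM scale all 8 were higher, against 84.3% of all genes tested, with a median of 0.69 against 0.60.

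Complex IV, cytochrome c oxidase, reduces oxygen to water. Of its 11 nuclear subunits in their common forms, 7 were higher (63.6%, against 51.8% of all genes tested) and 4 lower in IR12. Their median was 0.22. *Cox8a* had 148 FPKM in CTRL and 220.4 in IR12 (0.57), the highest ratio in this complex. *Cox4i1*, the common form of subunit IV, had 162 and 203 FPKM (0.32), and the pair *Cox5a* and *Cox5b* had ratios of 0.29 and 0.30. The most abundant subunit was on the other side: *Cox6c* had 861 FPKM in CTRL and 696 in IR12 (-0.31). *Cox7c* had 305 FPKM in CTRL and 213 in IR12 (-0.52), and *Cox7b* had 471 and 391 FPKM (-0.27). *Ndufa4*, named as a complex I gene and now placed in complex IV, had 638 and 587 FPKM (-0.12). The summed level of complex IV was hence slightly lower in IR12 (3435 FPKM in CTRL and 3318 in IR12) as deposited although most of its subunits were higher. On the TPM scale the sum was higher in IR12 (2814 and 4258), as were all 11 subunits, against 84.3% of all genes tested. *Ndufa4*, *Cox7b* and *Cox6a1* share their listed loci with *Phf14*, *Atp7a* and *Gatc*, so the small difference of the deposited sums is uncertain.

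Complex V makes ATP in a catalytic head, driven by a ring of c subunits that turns in the membrane. Of 13 tested subunits, 11 were higher in IR12, with a median of 0.27. *Atp5b*, the catalytic beta subunit and the most abundant member by mean level, had 722 FPKM in CTRL and 869 in IR12 (0.27), and the alpha subunit *Atp5a1* had 330.3 and 425 FPKM (0.36). *Atp5d*, the delta subunit of the central stalk, had 17.2 and 29.99 FPKM (0.77). *Atp5j*, coupling factor 6 of the peripheral stalk, was lower, with 102 FPKM in CTRL and 77.0 in IR12 (-0.40), but it shares its listed locus with *Gabpa* and *Jam2*. *Atp5l* was the other lower subunit, with 563 and 504 FPKM (-0.16).

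The highest log2 ratio of any member belonged to a gene of the c ring. The genes *Atp5g1*, *Atp5g2* and *Atp5g3* encode the same mature c subunit with different import sequences. *Atp5g1* (ENSRNOG00000007235, chromosome 10, 83895947 to 83898527 on rn6) had 48.3 FPKM in CTRL and 102 in IR12 (1.07). *Atp5g2* had 96.4 and 157 FPKM (0.70), and *Atp5g3*, the most abundant of them, had 202 and 234 FPKM (0.21). The order of the 3 levels was thus the same in both libraries, with the largest ratio at the lowest level. Their sum was 346 FPKM in CTRL and 493 in IR12, a ratio of 1.42, and the share of *Atp5g3* in it was 58.2% in CTRL and 47.4% in IR12.

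Several complex IV subunits have a second form that is made in heart, skeletal muscle, lung or testis. *Ndufa4l2*, a paralog of *Ndufa4* that is not counted among these tissue forms here, had 0.438 FPKM in CTRL and 0.102 in IR12. Of the restricted forms, *Cox6a2*, *Cox6b2* and *Cox8b* were under 1 FPKM in both libraries, and *Cox7a1* is listed at 0 in both, which can be a failed estimate. Their common partners *Cox6a1* (315 and 338 FPKM), *Cox6b1* on chromosome 1 (29.8 and 34.8 FPKM) and *Cox8a* carried the level of each pair. The partner of *Cox7a1* is listed as *Cox7a2l2* on chromosome 8, where RefSeq has *Cox7a2* between the same neighbours, and it had 173 and 229 FPKM. *Cox7a2l*, a related protein that joins complexes into supercomplexes, had 76.7 and 94.0 FPKM (0.29).

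A restricted form with a higher level was *Cox4i2*, the form of subunit IV known from lung and from the pericytes of small vessels (ENSRNOG00000007827, chromosome 3, 148234193 to 148245416 on rn6). It had 12.9 FPKM in CTRL and 6.69 in IR12 (-0.85), and was lower in IR12 also on the TPM scale (-0.27). The ratio of *Cox4i1* to *Cox4i2* was 12.6 in CTRL and 30.4 in IR12. Of 7 tested markers of pericytes and smooth muscle, 5 were lower in IR12 as deposited and 3 on the TPM scale, against 48.2% and 15.7% of all genes tested, and the list of 9 genes, none of them at 0, summed to 56.2 FPKM in CTRL and 32.1 in IR12. Its most abundant gene, *Rgs5*, had 38.6 FPKM in CTRL and 17.6 in IR12 (-1.09) and made up most of the difference between the sums, while *Des* was higher (1.12). The part of these markers in the difference of *Cox4i2* was not tested.

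Rows that stand for pseudogenes or copies were all lower where they could be tested. The second *Cox6b1*, on chromosome 2 (211337271 to 211337531 on rn6), lies where RefSeq has the pseudogene *Cox6b1-ps1*, and it had 4.74 FPKM in CTRL and 1.11 in IR12 (-1.44). *Ndufv3-ps1* had 1.54 and 0.602 FPKM (-0.67), and the second *Uqcrb*, on chromosome 1 at a place where RefSeq has a pseudogene, had a log2 ratio of -0.19. Reads of near-identical copies can be split between the gene and its copy, so these values and those of *Cox6b1* and *Uqcrb* are uncertain. Of the members tested, 12 share a listed locus with another gene of at least 1 FPKM, and without them 53 of 71 members were higher in IR12 with a median of 0.22, a comparison added after the data were seen.

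The level of a gene went with its ratio only weakly. The 6 most abundant members, *Cox6c*, *Atp5b*, *Atp5i*, *Ndufa4*, *Atp5l* and *Cox7b*, made up 34.1% of the members' summed FPKM in CTRL and 30.3% in IR12, and 4 of the 6 were lower in IR12. Of these, *Atp5b*, *Ndufa4* and *Cox7b* share a listed locus with another gene. Among the 69 tested structural subunits, the 23 of lowest mean level had a median log2 ratio of 0.31 (19 higher), the middle 23 one of 0.19 (15 higher) and the 23 most abundant one of 0.17 (15 higher). Across these 69 genes of 2 libraries, the Spearman correlation of mean FPKM with the log2 ratio was -0.17, a description of genes that share the same libraries.

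Other genes of mitochondrial energy metabolism were compared as lists. In a list of electron carriers, subunits and factors that the symbol rule leaves out, cytochrome c1 of complex III (*Cyc1*) had 45.1 FPKM in CTRL and 73.9 in IR12 (0.70) and cytochrome c (*Cycs*) had 82.9 and 108 FPKM (0.37), while the copper chaperone *Cox17* had 126 and 77.0 FPKM (-0.71). The 8 genes of this list had a median of 0.21 with 5 higher (62.5%, against 51.8% of all genes tested). Of 12 enzymes of the citric acid cycle, 10 were higher, with a median of 0.25, among them citrate synthase (*Cs*, 73.5 and 105 FPKM, 0.51) and *Idh3g* (68.4 and 111 FPKM, 0.69). The ADP, ATP and phosphate carriers and porins had 5 of 6 higher (83.3%, against 51.8% of all genes tested) with a median of 0.25. Among them, *Slc25a5*, an ADP/ATP carrier, had 199 and 326 FPKM (0.71). The citric acid cycle and the carriers thus lay near the members, and complex II, shared with the cycle, near both.

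Genes that copy, transcribe or translate the mitochondrial genome stood above the members. Of 12 genes of mitochondrial DNA expression, 11 were higher in IR12 with a median of 0.33, and *Tfam*, which packages and transcribes mitochondrial DNA, had 27.7 FPKM in CTRL and 43.3 in IR12 (0.63). Of 69 tested mitochondrial ribosomal proteins, 64 were higher with a median of 0.39. Of 72 tested cytosolic ribosomal proteins, 70 were higher, with a median of 0.83. The members' median of 0.19 was lower than that of either kind of ribosomal protein.

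Among 8 tested regulators of mitochondrial biogenesis, 6 were higher, with a median of 0.30. *Nrf1* had 29.2 FPKM in CTRL and 40.7 in IR12 (0.46), and the coactivator gene *Pprc1* had 4.31 and 8.49 FPKM (0.84). *Gabpa* had 16.0 and 18.5 FPKM (0.19), and *Yy1* was nearly even at 31.9 and 33.3 FPKM (0.06). *Ppargc1a*, the coactivator PGC-1 alpha, was lower as deposited, with 19.2 and 14.5 FPKM (-0.38). On the TPM scale it was higher (0.23), against a median of 0.60 for all genes tested. The regulators therefore did not share 1 direction as deposited.

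The lists of complex assembly and of the entry of pyruvate were mostly closer to 0 or below it. Assembly factors of complex IV had a median of 0.02 with 9 of 15 higher, those of complex III 0.09 with 3 of 6, those of complex II 0.18 with 2 of 3, and assembly factors and the inhibitor of complex V -0.11 with 1 of 4. The inhibitor *Atpif1* itself had 229 and 215 FPKM. Pyruvate dehydrogenase with its kinases and its phosphatase *Pdp1* had a median of -0.08 with 3 of 8 higher. On the TPM scale the medians were above 0, at 0.55 for this list and 0.50 for that of complex V. All genes tested had a median of 0.02 as deposited and 0.60 on the TPM scale. Both lists thus lay below all genes tested, an order that rescaling nearly keeps by construction. The kinase *Pdk1*, which restrains the enzyme, had 24.2 FPKM in CTRL and 14.7 in IR12 (-0.69). The 3 tested uncoupling proteins were all lower as deposited, with a median of -0.15. On the TPM scale their median was 0.45, against 0.60 for all genes tested.

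Hypoxia markers were examined because hypoxia is known to repress mitochondrial respiration. Their median was -0.19 as deposited, with 3 of 9 higher in IR12, and 0.44 on the TPM scale, with 6 of 9 higher. All genes tested had medians of 0.02 and 0.60 on these scales, with 51.8% and 84.3% higher. *Bnip3*, a mitophagy receptor, had 130.1 FPKM in CTRL and 49.0 in IR12 (-1.39), and hexokinase 2 (*Hk2*) had 141 and 54.8 FPKM (-1.35), and both were lower on the TPM scale as well. *Ldha*, by contrast, had 629 and 696 FPKM (0.15). The median of this list lay below that of all genes tested, an order that rescaling nearly keeps by construction. Its genes had no common direction in these libraries.

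**Figure D5:**
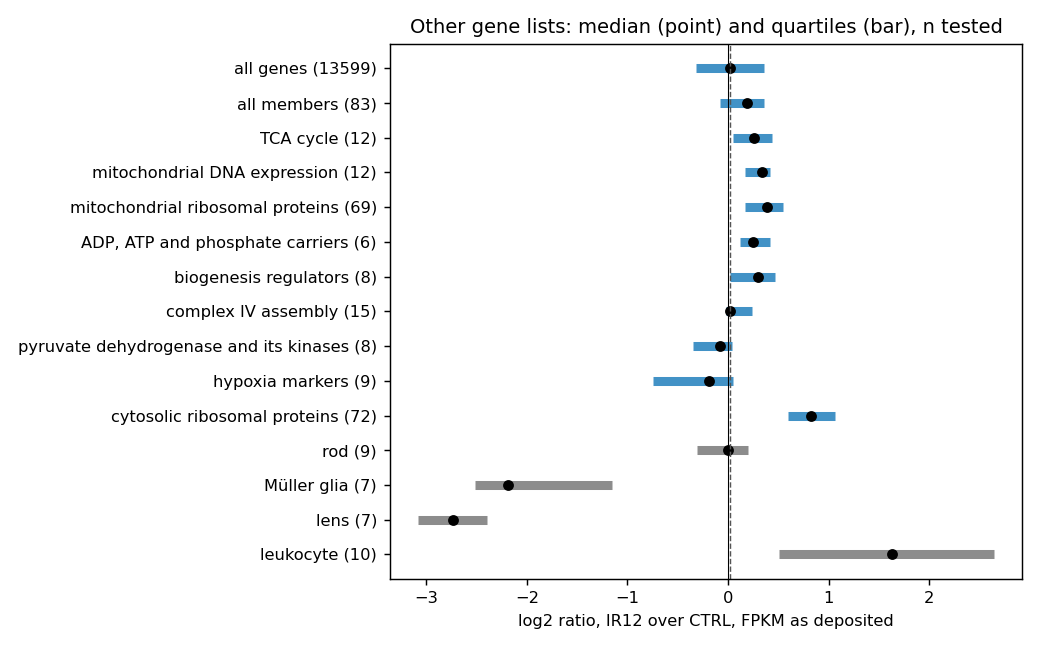
Median (point) and quartiles (bar) of the log2 ratio (IR12 over CTRL, FPKM as deposited) of all genes tested, the members and 13 other lists, with the number of genes tested in brackets. The members (0.19) lie between all genes (0.02) and mitochondrial ribosomal proteins (0.39). The medians of the Müller glia, lens and leukocyte lists lie outside the range of the medians of the metabolic lists. The leukocyte bar overlaps those of both kinds of ribosomal protein.

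Markers of several cell types differed more between the libraries than the members did. All 7 lens genes were lower in IR12, and their list summed to 3374 FPKM in CTRL and 400.2 in IR12, with *Cryba1* the most abundant. The Müller glia list summed to 1168 FPKM in CTRL and 424 in IR12, with 6 of 7 genes lower and *Glul* the most abundant. As deposited, 6 of 6 cone, 6 of 6 amacrine, 5 of 6 bipolar and 6 of 8 ganglion cell markers were lower in IR12, against 48.2% of all genes tested, and *Otx2* of the bipolar list is at 0 in both libraries. On the TPM scale these counts were 3, 4, 2 and 2, against 15.7% of all genes tested, so these counts depend on the scaling, while those of the lens and Müller glia lists were the same on both scales. The leukocyte list summed to 21.8 FPKM in CTRL and 138 in IR12, with 9 of 10 genes higher, *Lyz2* the most abundant and *S100a8* listed at 0 in CTRL. The rod list summed to 17146 and 19818 FPKM. Endothelium (5 tested, 2 higher) summed to 127 and 106 FPKM as deposited and to 104 and 136 on the TPM scale, and pigment epithelium (4 tested, 2 higher) to 79.3 and 98.4 FPKM, the higher sum in IR12 resting on *Ttr* (61.8 and 87.4 FPKM), while *Rpe65* had 11.1 and 4.88 FPKM (-1.04). The part of these cell types in the differences of the members was not tested.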

How the data were processed

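The deposited values are FPKM, 1 column per library, of 32662 genes under Ensembl identifiers. The submitters' processing notes name STAR 2.5.2b, Cuffdiff 2.2.0 and the build rn6, without their roles. Reads of 150 bp were shortened to 100 bp. The labels and the series description name different stranded kits, both with rRNA removal. Ratios were computed as log2 of FPKM + 1, IR12 over CTRL, for genes with an FPKM of at least 1 in at least 1 library. Roles were assigned by symbol, and members under a doubtful symbol by their neighbours in RefSeq GRCr8. Members and lists were chosen with earlier results of these data known. Named in full were the 6 highest and 6 lowest log2 ratios at an FPKM of at least 5 in either library, the 6 most abundant members, isoform pairs and the most abundant member of each complex. 1 gene that this rule takes is not reported here. Further members and list genes were named after their values were seen. Promoters came from RefSeq GRCr8. Proteins were not analysed here. Alternatives tried were another pseudocount (0.1), centring on the median gene, 2 rescalings, 3 other minimum levels and structural subunits only. The ratios were tested on simulated data. The work was done in Python 3.11.15 with pandas 2.3.3, numpy 2.4.6, matplotlib 3.10.9 and scipy 1.17.1.

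FPKM holds no counts, but low values move in steps of single reads. At 16 of 24 locus lengths compared, the lowest repeated FPKM in CTRL was 1.71 times that in IR12. At 939 bp, 1 read was worth 0.0881 FPKM in CTRL and 0.0516 in IR12. For a transcript of that length, the median level of the tested members (90.2 and 94.0 FPKM) is 1024 and 1822 reads, with a counting SD of 3.13% and 2.34%. At 312 bp, 1 read was worth 0.578 and 0.339 FPKM, so the error of shorter transcripts is larger at the same level. These figures cover counting error only.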

Additional observations from a re-analysis of the deposited data

How the results depend on the processing

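Medians were read as unchanged within 0.05 on the log2 scale and counts within 1.5 times. Scaling moved the results most, by construction. On the TPM scale the members had a median of 0.83, with 75 at least 25% above CTRL, 2 at least 20% below and 21 at least 2-fold higher, against 70.0%, 8.31% and 21.4% of all genes tested. The medians were then 0.94 for complex I core subunits, 0.73 for accessory subunits, 0.95 for assembly factors, 0.95 for complex II, 0.69 for complex III, 0.85 for complex IV and 0.91 for complex V. With the same sum over genes other than small RNAs, the median of the members was 0.10, with 14 at least 25% above, 13 at least 20% below and 0 at least 2-fold higher, against 22.3%, 30.1% and 5.88%. The medians were then 0.22 for core subunits, -0.0091 for accessory subunits, 0.23 for assembly factors, 0.22 for complex II, -0.014 for complex III, 0.13 for complex IV and 0.17 for complex V, so accessory subunits and complex III changed sign.

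Of the 8 members at least 20% below CTRL as deposited, those above 0 on the TPM scale were *Atp5j* (0.24), *Ndufa12* (0.21), *Uqcrb* on chromosome 7 (0.16), *Cox7c* (0.13) and *Ndufc1* (0.040). Likewise turned from below to above 0 were *Ppargc1a* (0.23) and the medians of complex V assembly factors and inhibitor (0.50), hypoxia markers (0.44), pyruvate dehydrogenase with its kinases and phosphatase (0.55) and uncoupling proteins (0.45). The median of all genes tested was 0.60 on the TPM scale, and each of these members, *Ppargc1a* and the list medians stayed below it. The rescaling shifts all ratios by nearly the same amount, so this order was nearly fixed in advance. Without small RNAs the median of complex III assembly factors was -0.00089. At a mean FPKM of at least 20, which leaves fewer genes, the medians of the other complex I and of complex II assembly factors were -0.14 and -0.21, those of core subunits, accessory subunits and complex III were 0.25, 0.14 and 0.15, and 4 members were at least 20% below, against 20.2% of all genes at that level. With structural subunits only, 5 were, against 24.9%. At least 2-fold lower were 2 members with a pseudocount of 0.1, and 0 at an FPKM of at least 5, at a mean of at least 20, or with structural subunits only.

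The alternatives for the other lists, the markers, the counts by complex, the sum of complex IV and members without shared loci were chosen after seeing the data. Of 550 values under an alternative, 198 could not move by this measure, since a gene's own ratio is the same at any minimum level and centring takes only 0.025 from each ratio. Of the other 352, 173 were unchanged, 164 moved, and 15 changed sign from a median at least 0.05 from 0 or from a gene at least 25% above or 20% below CTRL. With smaller ones included, 25 changed sign, among them *Cox6c*, *Cox7b*, *Ndufa4* and *Atp5l* on the TPM scale. No paired analysis was possible because each condition is 1 library.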
